A study of Mus musculus with 6 samples.

Results

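The genes described here are those of the mitochondrial ribosomal proteins, taken as every row of the deposited expression table whose Ensembl identifier carries a mouse symbol made of Mrpl or Mrps, a number and at most 1 letter. The rule found 77 of the 26789 genes listed, 48 of them of the large subunit (Mrpl) and 29 of the small subunit (Mrps), on 17 chromosomes. Subunits are assigned by symbol throughout, so that Mrps18a and Mrps30, which structures place in the large subunit, and Mrps36 count as small subunit genes. No expression value was used to choose them. Mrpl33 is not analysed here. RNA was sequenced from microglia, which serve as tissue macrophages in the brain, of C57Bl/6 mice at P15. In the E3–E12 diet mice (labelled Low Sodium Diet) the dam had eaten sodium-restricted chow from E3 to E12 and standard chow from then on, and the dams of the controls (Control Diet) were kept on standard chow. Each group had 3 libraries, and the methods of the study describe each as the pooled rostral nucleus of the solitary tract (NST), the first central relay for taste, of 6 littermates. A library therefore averages a litter, no genetic change was introduced in either group, and n counts litters. The methods name CD11b magnetic beads for the isolation, whereas the design note names laser tissue microdissection, so the way in which the cells were obtained is uncertain.

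Mitochondria carry their own ribosome, which translates only the few membrane proteins of oxidative phosphorylation encoded in mitochondrial DNA. Its 2 ribosomal RNAs, the 12S RNA of the small subunit (mt-Rnr1) and the 16S RNA of the large subunit (mt-Rnr2), are transcribed inside the organelle, while every protein is encoded in the nucleus, made in the cytosol and imported. Some of these proteins descend from bacterial ribosomal proteins and others have no bacterial counterpart and lie mostly on the surface of the particle. The large subunit holds the peptidyl transferase centre and the exit tunnel, and the small subunit binds mRNA and decodes it.

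All values are normalized counts per gene, and the number of reads behind them is unknown, so that no counting interval can be attached. The libraries summed to between 9407141 and 17204618 normalized counts, and control replicate 2 had the largest sum and the most genes listed at 0 (10640, against 3459 to 7135 in the other 5). The 6 microglial markers reported (Cx3cr1, P2ry12, Tmem119, Csf1r, Itgam and Aif1) were above 0 in every library, with sums of 81532 to 417118 and the highest sum in control replicate 2. Csf1r alone made up 280071 of that sum. Cx3cr1, Tmem119 and Csf1r were highest in control replicate 2, whereas P2ry12, Itgam and Aif1 were highest in E3–E12 diet replicate 3. Markers of other cells were present too. Their summed values ran from 4456 to 9278 for 5 endothelial genes, 311 to 8348 for 5 astrocyte genes, 4294 to 31726 for 5 oligodendrocyte genes, 130 to 1395 for 5 neuronal genes and 58.0 to 40082 for 5 choroid plexus genes. Control replicate 2 was the lowest library in the endothelial, astrocyte and neuronal sums, and the endothelial genes Ly6c1 and Slco1c1, the astrocyte genes Gfap and Aldh1l1 and the neuronal genes Syt1 and Rbfox3 were listed at 0 in it. The endothelial genes went both ways, since Cldn5 (1207) and Pecam1 (3154) were highest in that library. The part of this difference in the results below was not tested. Fewer cells of a type and less RNA per cell cannot be told apart in such libraries.

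Many mitochondrial ribosomal protein genes lie head to head with another gene, sharing the stretch of DNA from which both are transcribed. Of the 77 genes, 33 (42.9%) had a protein-coding neighbour on the opposite strand that started within 1000 bases of their own start and ran away from it, compared with 14.0% of the 14806 protein-coding genes in the expression test and 10.7% of all 22028 protein-coding genes (GENCODE annotation of GRCm38). They were 24 genes of the large and 9 of the small subunit. In 22 of the 33 the starts lay within 250 bases of each other, and in 15 the transcripts overlapped at their starts. Several neighbours also act in mitochondria. Mrpl46 and Mrps11, one from each subunit, were each other's neighbour, and Mrps12 lay beside Sars2 (the mitochondrial seryl-tRNA synthetase), Mrpl43 beside Twnk (the helicase of mitochondrial DNA replication), Mrpl47 beside Ndufb5 and Mrpl36 beside Ndufs6 (both subunits of respiratory complex I). Mrpl49 was the neighbour of Fau, which encodes a protein of the cytosolic ribosome.

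Promoter windows of RefSeq (GRCm38.p6), reaching from 250 bases before to 50 bases after a start, were found for 68 of the 77 genes (74 windows). Short motifs of factors known at promoters of nuclear genes for mitochondria were counted on both strands. The ETS core CCGGAAG, bound by GABP (NRF2) among others, was in 33.8% of these windows, in 15% of the 14592 windows of protein-coding genes in the expression test and in 8.9% of all 32851 windows. The core of the NRF1 site, GCGCATGCG, was in 9.5%, 3.1% and 1.8% of the same 3 sets, and the YY1 core, AAGATGGCG, in 10.8%, 2.5% and 1.4%. For comparison the E-box CACGTG was in 9.5%, 9.3% and 7.2%. The median GC content was 58.8% in the windows of the mitochondrial ribosomal protein genes and 60.0% in those of the protein-coding genes tested. Of the 68 genes, 31 held none of the 4 motifs, 29 held 1 and 8 held 2. The ETS core was in 14 of 42 genes of the large subunit and in 11 of 26 of the small subunit. These matches are letters in a window and say nothing of binding.

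**Figure D1:**
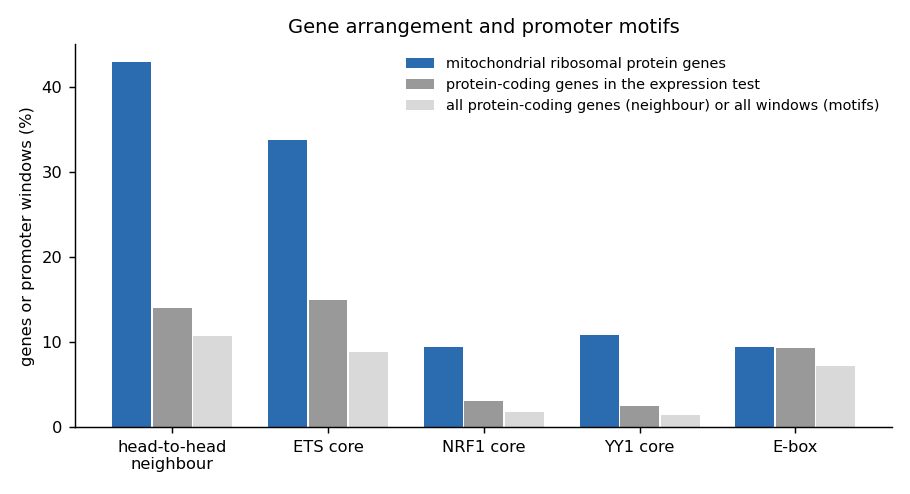
Share of genes with a head-to-head protein-coding neighbour, and share of RefSeq promoter windows that hold each motif, in percent (y axis). Blue bars are the mitochondrial ribosomal protein genes, dark grey bars the protein-coding genes in the expression test and light grey bars all protein-coding genes or all windows. The blue bar is the tallest for the neighbour (42.9%), the ETS core (33.8%), the NRF1 core (9.5%) and the YY1 core (10.8%), and level with the dark bar for the E-box (9.5% and 9.3%).

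The sequences before 5 starts are printed as examples of genes described here. Mrpl52 had the highest and Mrpl28 the lowest fold change between diets, Mrpl17 held the largest single value, Mrpl10 was among the steadiest genes across libraries, and Mrpl43, beside Twnk, holds 2 copies of the ETS core. Each printed stretch is the part of the 250 bases before the start that holds no annotated exon, read in the direction of the gene, with the motifs in capitals (the ETS core or its reverse complement in Mrpl52, Mrpl17 and, in 2 copies, Mrpl43, and the NRF1 core in reverse complement in Mrpl10).
Mrpl52, chr14:54426659-54426908, plus strand: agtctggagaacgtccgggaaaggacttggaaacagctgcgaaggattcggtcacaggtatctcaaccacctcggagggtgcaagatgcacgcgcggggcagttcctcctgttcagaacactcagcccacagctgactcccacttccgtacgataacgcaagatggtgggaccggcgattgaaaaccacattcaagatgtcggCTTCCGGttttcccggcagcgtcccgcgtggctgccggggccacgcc
Mrpl28, chr17:26123255-26123499, plus strand: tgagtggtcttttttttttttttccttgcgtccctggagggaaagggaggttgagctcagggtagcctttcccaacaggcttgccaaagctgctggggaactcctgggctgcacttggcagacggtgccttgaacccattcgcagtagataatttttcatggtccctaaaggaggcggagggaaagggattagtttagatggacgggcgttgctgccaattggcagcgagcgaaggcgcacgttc
Mrpl17, chr7:105811100-105811337, minus strand: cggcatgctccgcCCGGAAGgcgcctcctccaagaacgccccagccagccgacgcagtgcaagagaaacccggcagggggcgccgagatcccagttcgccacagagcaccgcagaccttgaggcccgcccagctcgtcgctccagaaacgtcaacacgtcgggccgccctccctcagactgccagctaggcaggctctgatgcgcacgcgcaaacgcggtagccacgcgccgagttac
Mrpl10, chr11:97041408-97041559, plus strand: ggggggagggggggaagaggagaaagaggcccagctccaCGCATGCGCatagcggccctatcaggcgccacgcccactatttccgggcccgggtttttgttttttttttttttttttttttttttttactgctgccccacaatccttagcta
Mrpl43, chr19:45006443-45006557, minus strand: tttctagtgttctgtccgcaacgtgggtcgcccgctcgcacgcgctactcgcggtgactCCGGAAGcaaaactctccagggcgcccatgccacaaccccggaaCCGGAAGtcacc

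Mitochondrial ribosomal protein mRNAs took a small share of each library. As a share of all normalized counts their sum was 0.0984%, 0.134% and 0.0961% in the controls, here and throughout in the order of the replicates 1, 2 and 3. In E3–E12 diet mice it was 0.125%, 0.101% and 0.0740%. The groups overlapped. The high value of control replicate 2 rested on 3 genes of the large subunit, Mrpl17, Mrpl4 and Mrpl20, which made up 57.0% of the sum there. Without them the shares were 0.0908%, 0.0578% and 0.0896% in controls and 0.109%, 0.0920% and 0.0643% in E3–E12 diet mice, and control replicate 2 was the lowest library rather than the highest. By contrast, the 2 mitochondrial ribosomal RNAs took 4.07% to 15.8% of a library, with the lowest share in control replicate 2.

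Levels of different genes are compared per kilobase of annotated exon. The median gene had 43.4 normalized counts per kb (mean of the 6 libraries), with quartiles of 26.01 and 81.43. The median was 46.5 for the large and 41.8 for the small subunit, and single genes ranged from 1.34 per kb for Mrps9 to 351.5 for Mrpl20. Genes with a bacterial counterpart had a median of 43.4 per kb (47 genes) and those specific to mitochondria 52.3 (29 genes). The quartiles of both overlapped widely (25.5 to 86.5 and 28.9 to 67.5).

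In the large subunit the highest means per kb were those of Mrpl20, Mrpl17 (245.8) and Mrpl4 (245.4), and all 3 rested on control replicate 2. Mrpl17, a protein near the exit of the peptide tunnel, had 8149 normalized counts there, compared with 496 and 412 in the other controls, and E3–E12 diet mice had 680, 620 and 860. The values of Mrpl4, which also lies near the tunnel, were 76.1, 2689 and 250 in controls and 333.7, 147.3 and 356.6 in E3–E12 diet mice. Mrpl20, an early assembling protein in the bacterial subunit, had 159, 2331 and 114 in controls and 465, 232 and 209 in E3–E12 diet mice. Over the 5 other libraries their means per kb were 80.7, 88.9 and 141.7, and Mrpl27 (241.3), whose bacterial counterpart reaches into the peptidyl transferase centre, and Mrpl24 (215.2) led the subunit.

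In the small subunit the same gene led with and without that library. Mrps15, a primary rRNA-binding protein, led with 214.2 per kb over all libraries and 221.0 without control replicate 2. It had 384.6, 304.5 and 290.4 normalized counts in controls and 388.5, 372.4 and 435.2 in E3–E12 diet mice, a 1.499-fold range that was the narrowest of all 76 genes tested. Mrps24, the counterpart of bacterial S3 at the mRNA entry, had 130.4 per kb, with 119, 297 and 157 normalized counts in controls and 188, 93.5 and 293 in E3–E12 diet mice. Mrps21 followed at 113.9 per kb although it was listed at 0 in control replicate 2, and over the 5 other libraries it was ahead of Mrps24 (136.6 and 116.0 per kb). Per kb, Mrps15 was above Mrps24 in every library but control replicate 2, whereas the ranges of Mrps24 and Mrps21 overlapped.

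**Figure D2:**
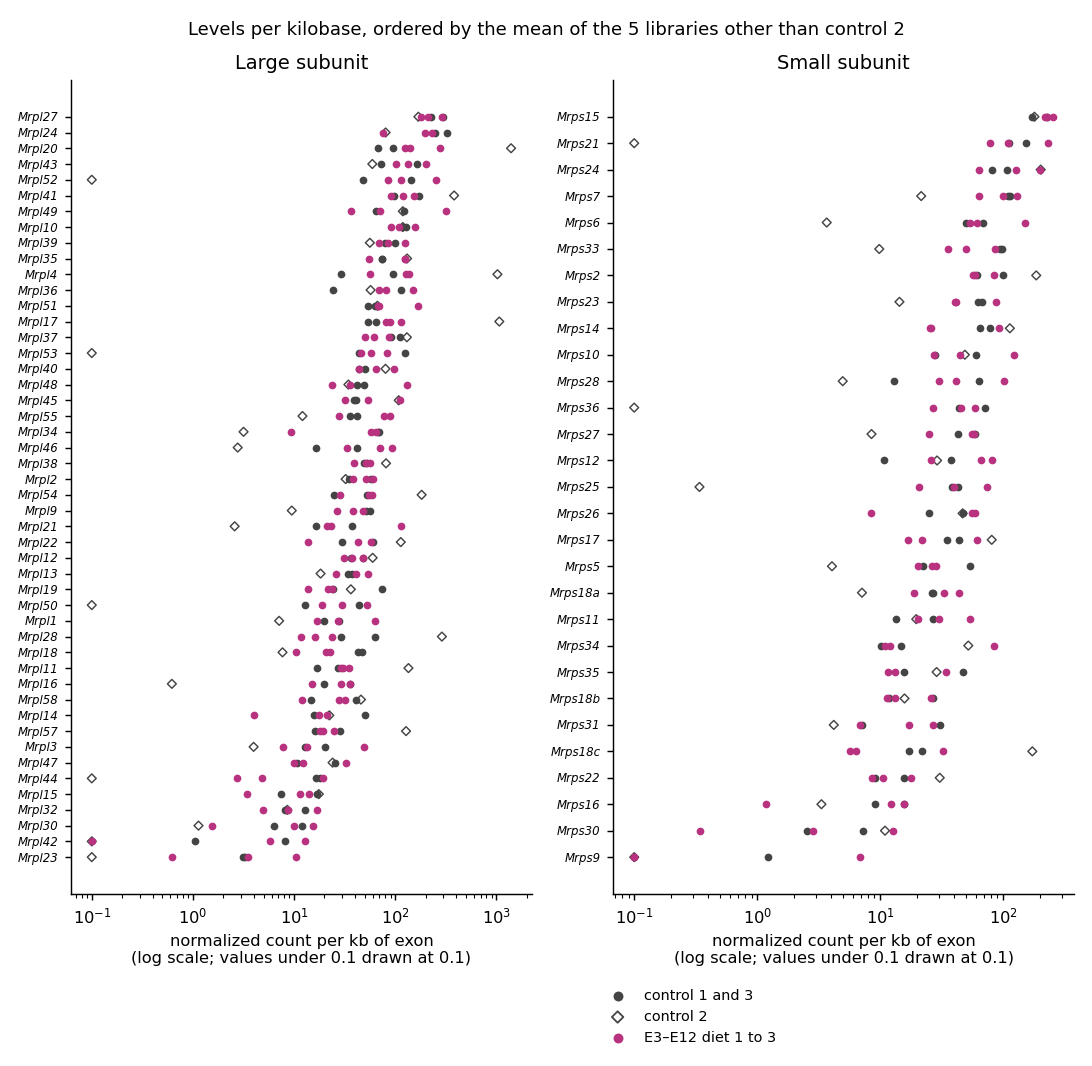
Level of each of the 77 genes in each library, in normalized counts per kb of exon on a log scale (x axis), large subunit on the left and small subunit on the right, ordered by the mean of the 5 libraries other than control replicate 2. Filled grey points are control replicates 1 and 3, open diamonds control replicate 2 and magenta points the 3 E3–E12 diet libraries; the diamonds lie far from the other points in both directions, as for Mrpl20 on the right and Mrps21 on the left.

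Few of these genes were steady. Only 5 of the 76 tested (6.58%) had a highest value under 2 times the lowest, compared with 5.12% of all 18007 genes tested. Without control replicate 2 the count was 10 (13.2%), and 14.2% of all genes. The 5 were Mrps15, Mrpl10 (1.74-fold), Mrpl27 (1.76-fold), Mrpl2 (1.86-fold), which lies near the peptidyl transferase centre, and Mrpl12 (1.90-fold). At the other end, 19 genes (25%) spanned more than 10-fold and 8 (10.5%) were listed at 0 in at least 1 library, compared with 22.8% and 19.9% of all genes. All 8 were at 0 in control replicate 2, in which 9 of the 77 genes were at 0 (Mrpl23, Mrpl42, Mrpl44, Mrpl50, Mrpl52, Mrpl53, Mrps9, Mrps21 and Mrps36). Control replicate 2 was the lowest library for 33 of the 76 genes and the highest for 21, where the next library in either count reached 15. Over all genes tested it was the lowest in 38.2% and the highest in 26.3%, so the same library lay at the extremes across the transcriptome.

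The balance of the subunits differed in the same library. The median log2 level of the large subunit minus that of the small subunit was −0.69, 1.72 and 0.13 in controls and 0.19, 0.00 and 0.12 in E3–E12 diet mice. In the 3 E3–E12 diet libraries and control replicate 3 both subunits thus had nearly the same median, whereas the small subunit was the higher in control replicate 1 and the large subunit in control replicate 2. The order of the 76 genes was also least alike in control replicate 2. Its Spearman correlations with the other libraries ran from 0.43 to 0.55, and those among the 5 others from 0.64 to 0.83, across genes that share their length and base composition in every library. Over all genes tested they ran from 0.69 to 0.778 and from 0.765 to 0.912, so that the ranges overlapped there.

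**Figure D3:**
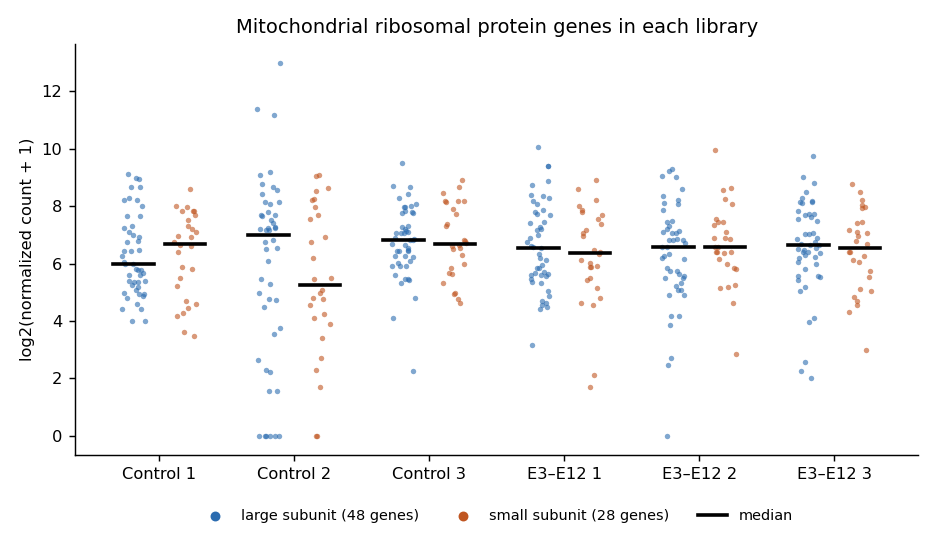
Level of each gene in each library as log2(normalized count + 1) (y axis), with large subunit genes in blue (48), small subunit genes in orange (28) and the median as a bar. The medians lie close together in control replicate 3 and the 3 E3–E12 diet libraries, and control replicate 2 has the widest spread, with genes at 0 and 3 large subunit genes above 11.

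The diets were compared with limma on log2(normalized count + 1) for every gene averaging 10 normalized counts or more, two-sided, with Benjamini-Hochberg adjustment over all 18007 genes and the threshold of 0.1 used in the study. No mitochondrial ribosomal protein gene passed this test. Of the 76 genes, 0 had an adjusted p under 0.1 (smallest 0.9988), and the same was true of all genes (0 genes, 0.0%, with 0.2249 as the smallest adjusted p of limma). The study used another test, DESeq2, and lists genes past that threshold in both directions. Its lists name none of the 76 genes. At an unadjusted p under 0.05 limma gave 1 gene, Mrpl28, against 1.82% of all genes. In E3–E12 diet mice 42 of the 76 genes had the higher mean log2 level, or 55.3%, and 54.4% of all genes did. The median log2 fold change was 0.22 over the 76 genes and 0.09 over all genes tested. Standard errors had a median of 0.82 in these genes and 0.85 in all genes, so that a change of that size in a single gene was not detectable with these libraries.

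Both subunits held genes on either side of 0. In E3–E12 diet mice 25 of 48 genes of the large subunit had the higher mean log2 level, with a median log2 fold change of 0.06, and in the small subunit 17 of 28, with a median of 0.30. Without control replicate 2 the medians were −0.06 and −0.17, −0.07 over all 76 genes and −0.004 over all genes tested, and 31 of the 76 genes were higher. Leaving out that library changed the direction of 25 of the 76 genes (32.9%), as it did for 30.9% of all genes. Genes with a bacterial counterpart split evenly (23 of 46 higher, median 0.03), and of those specific to mitochondria 18 of 29 were higher (median 0.22). Without control replicate 2 these became 20 of 46 (median −0.08) and 11 of 29 (median −0.05).

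**Figure D4:**
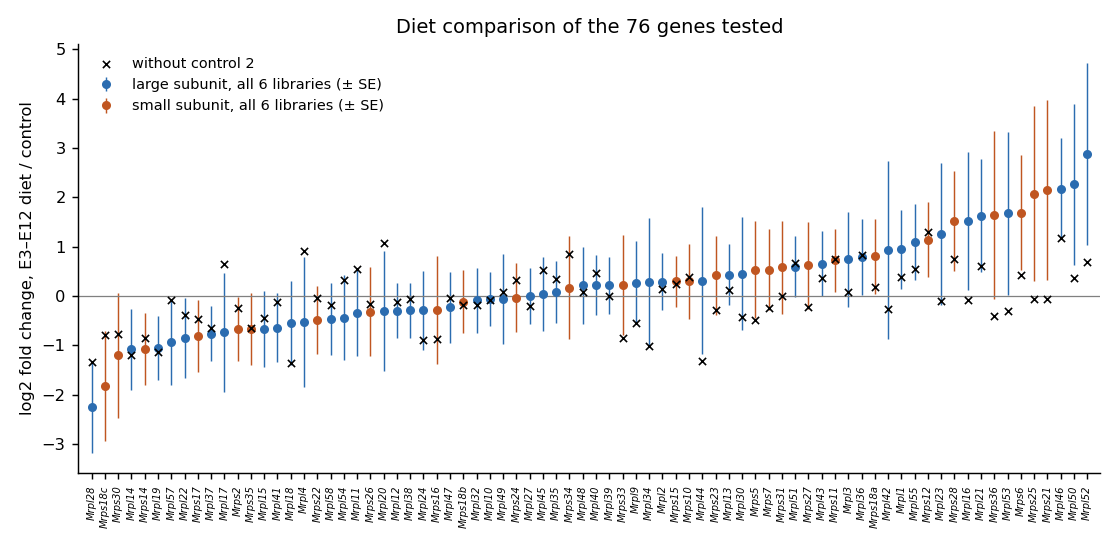
Log2 fold change between E3–E12 diet mice and controls (y axis) for the 76 genes tested, in order of size, with large subunit genes in blue, small subunit genes in orange and bars of ± 1 standard error from limma. Crosses give the value without control replicate 2; at both ends of the order most crosses lie nearer to 0 than the points, and 25 lie on the other side of it.

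Groups did not overlap in 4 genes. Of these, 1 was higher in E3–E12 diet mice (2.99% of all genes tested were) and 3 were lower (2.91% of all genes), so that 5.26% of the 76 genes did not overlap and 5.90% of all genes did not. All 4 belong to the large subunit. Each had an exact permutation p of 0.1, two-sided, the smallest that 3 libraries against 3 can give. Any gene without overlap has this p, so it adds nothing to the lack of overlap. Mrpl51 (chr6:125191801-125196269), a protein specific to the mitochondrial ribosome, was the one that was higher. It had 256.8, 270.3 and 216.8 normalized counts in controls and 677.4, 277.7 and 276.3 in E3–E12 diet mice (log2 fold change 0.59, SE 0.62). The gap between the groups was small, since only E3–E12 diet replicate 1 lay far above the controls, and without it the log2 fold change was 0.17. Its head-to-head neighbour Ncapd2, a condensin subunit, had 151.6, 21.9 and 38.7 in controls and 51.1, 33.7 and 47.4 in E3–E12 diet mice, with full overlap.

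Mrpl28 (chr17:26123500-26126613), whose promoter stretch held none of the 4 motifs, encodes the counterpart of bacterial L28. It had 40.5, 400.4 and 86.6 normalized counts in controls and 22.4, 33.0 and 16.1 in E3–E12 diet mice. All E3–E12 diet values were below all control values, and control replicate 2 was far above the rest. The log2 fold change was −2.25 (SE 0.93) and −1.34 without control replicate 2, and limma gave an adjusted p of 0.9988. Mrpl37 (chr4:107055874-107066868), specific to mitochondria, had 500.3, 583.1 and 405.5 in controls and 222.8, 387.0 and 278.6 in E3–E12 diet mice, which is 496.3 ± 88.8 and 296.1 ± 83.5 (SD, n = 3 libraries each). Here the spread within both groups was small and no single library set the difference (log2 fold change −0.76, SE 0.56, and −0.64 without control replicate 2). Its neighbour Cyb5rl, an oxidoreductase gene, had 93.2, 1133 and 217.9 in controls and 218.4, 154.0 and 170.5 in E3–E12 diet mice.

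Mrpl19 (chr6:81957851-81965958), the counterpart of bacterial L19 at the subunit interface, had 401.4, 198.9 and 133.1 in controls and 118.4, 75.4 and 130.5 in E3–E12 diet mice. The lowest control and the highest E3–E12 diet library lay almost at the same value, and the log2 fold change was −1.06 (SE 0.65), or −0.62 without control replicate 1. Its value is uncertain in another way, because 37.0% of the 50-base windows of its exons also occur in other annotated genes, most often Gcfc2.

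**Figure D5:**
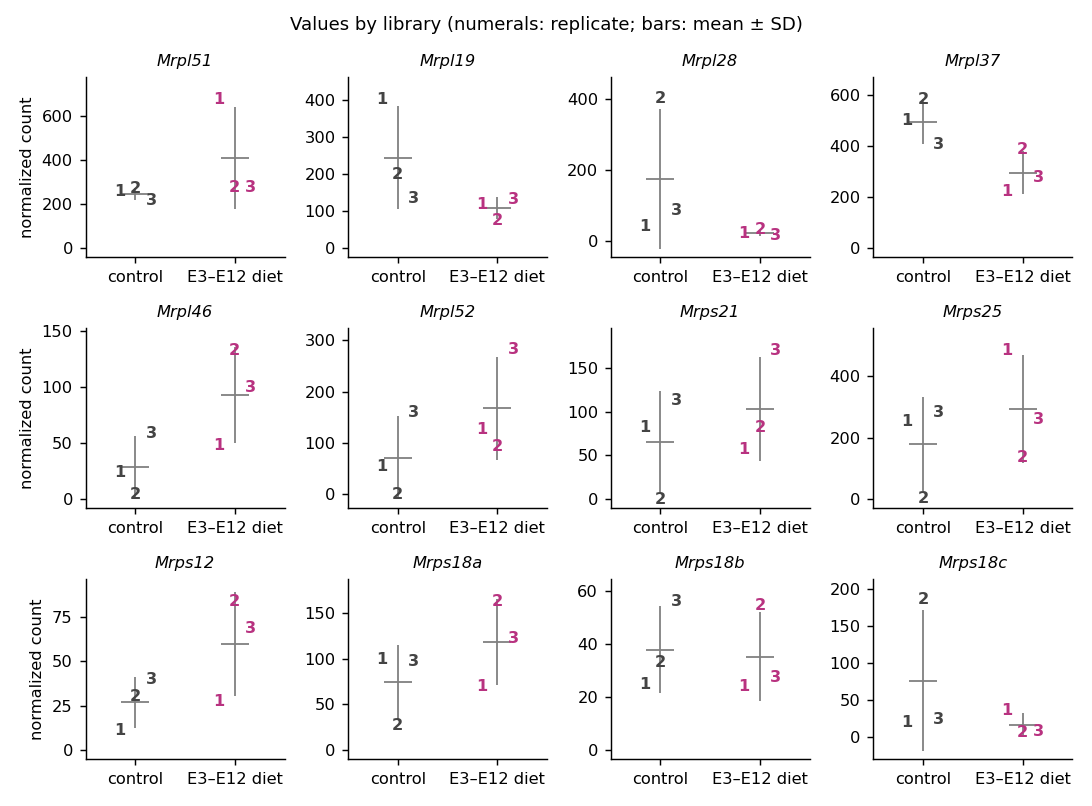
Normalized counts (y axis, linear, a separate scale per gene) of 12 genes in controls and E3–E12 diet mice; each numeral is the library of that replicate number and bars give mean ± SD (n = 3 libraries). In Mrpl28, Mrps18c and, at 0 or close to it, Mrpl46, Mrpl52, Mrps21 and Mrps25 the numeral 2 of the controls lies away from 1 and 3.

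Of the 5 highest fold changes, 4 were carried by control replicate 2. Mrpl52, a mitochondria-specific protein with an ETS core in its printed stretch, was listed at 0 there, whereas the other controls reached 53.7 and 158.8 normalized counts. In E3–E12 diet mice it had 126.5, 93.7 and 281.7. The log2 fold change of 2.87 (SE 1.84) was 0.69 without that library. Mrpl50 (27.1, 0 and 92.2 in controls, 39.6, 111.1 and 62.4 in E3–E12 diet mice) and Mrps21, the counterpart of bacterial S21 (82.6, 0 and 112.7, then 57.4, 81.6 and 170.6), had the same shape, with log2 fold changes of 2.26 and 2.15 that became 0.37 and −0.05. Mrps25 was at 2.23 in control replicate 2 and at 252.4 and 281.9 in the other controls, while the E3–E12 diet libraries had 484.3, 135.1 and 260.1 (2.07, and −0.05 without that library). In this gene 68.2% of the 50-base windows are shared, mainly with Nr2c2. Once the library was left out, the direction was thus lost in Mrps21 and Mrps25 and the size in Mrpl50 and Mrpl52.

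Mrpl46 was the exception among these 5. It had 23.3, 3.93 and 58.8 in controls and 47.5, 132.8 and 99.3 in E3–E12 diet mice, a log2 fold change of 2.17 (SE 1.02) that stayed at 1.18 without control replicate 2. Mrps11, which starts beside it on the other strand and encodes the platform protein S11 of the small subunit, had 58.1, 42.7 and 29.4 in controls and 43.9, 117.0 and 66.0 in E3–E12 diet mice (0.73, SE 0.64). In both genes E3–E12 diet replicate 2 was the highest library. Mrpl43 and its neighbour Twnk were chosen for their shared start after the values were seen. Mrpl43 had 110.3, 90.4 and 251.9 in controls against 204.7, 156.4 and 308.4 (log2 fold change 0.65, SE 0.66). Twnk had 89.0, 348.1 and 135.1 in controls against 127.1, 129.2 and 176.1 (−0.18, SE 0.69). Both pairs overlap at their starts, and reads from the overlap cannot be told apart where the counting did not use strand, which is not given in the sources used here.

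Among the 5 lowest fold changes, besides Mrpl28, were Mrps18c, Mrps30, Mrpl14 and Mrps14. Mrpl14, at the interface of the subunits, had 14.9, 21.2 and 47.7 in controls and 20.2, 16.9 and 3.78 in E3–E12 diet mice (log2 fold change −1.08, SE 0.83). Mrps14, a protein of the small subunit head, had 255.5, 369.7 and 210.7 in controls and 84.0, 301.9 and 82.6 in E3–E12 diet mice (−1.08, SE 0.73). In Mrps14, 2 of the 3 E3–E12 diet libraries lay below all controls, and in Mrpl14 1 did, so the groups overlapped in both.

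By role, the fold changes took both signs. The stalk that recruits translation factors to the large subunit is built on Mrpl10 and Mrpl12. Mrpl10, with an NRF1 core before its start, had 200.8, 203.6 and 216.5 in controls and 154.0, 267.6 and 188.3 in E3–E12 diet mice, or 207.0 ± 8.38 and 203.3 ± 58.2 (SD, n = 3 libraries each; log2 fold change −0.06, SE 0.55). Mrpl12 had 55.5, 91.8 and 74.1 in controls and 48.3, 56.9 and 73.2 in E3–E12 diet mice (−0.30, SE 0.55). Both were steady across all 6 libraries, control replicate 2 included. At the tunnel exit, where nascent chains leave towards the inner membrane, Mrpl45 had 105.9, 281.6 and 101.0 in controls and 287.0, 139.1 and 82.6 in E3–E12 diet mice (0.04, SE 0.75). Mrpl24 ranged from 181.5 to 728.3 in controls and from 172.7 to 524.9 in E3–E12 diet mice (−0.29, SE 0.80). Mrpl23, the gene with the lowest level per kb in the large subunit (3.51), had 15.2, 0 and 16.1 in controls and 51.6, 16.9 and 3.02 in E3–E12 diet mice. Its pseudogene Mrpl23-ps1 was at most at 26.2 normalized counts, in control replicate 3.

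Mrps12, a protein of the decoding centre, had 11.3, 30.2 and 39.5 in controls and 27.1, 83.9 and 68.6 in E3–E12 diet mice (log2 fold change 1.14, SE 0.76, and 0.63 to 1.63 with 1 library left out, the lowest without control replicate 1). Of its E3–E12 diet libraries, 2 were above all controls. Sars2, whose start lies 172 bases from that of Mrps12, had 71.3, 21.8 and 77.3 in controls and 40.8, 15.7 and 75.7 in E3–E12 diet mice (−0.42, SE 0.84), and its lowest library, E3–E12 diet replicate 2, was the highest for Mrps12. Mrpl58, a peptidyl-tRNA hydrolase that frees stalled ribosomes and is also built into the large subunit, had 49.6, 153.0 and 137.1 in controls and 92.0, 39.5 and 106.8 in E3–E12 diet mice (−0.47, SE 0.73). Mrpl44, with a fold like that of RNase III, had 29.4, 0 and 27.1 in controls and 7.90, 4.49 and 32.1 in E3–E12 diet mice, and its log2 fold change of 0.31 (SE 1.49) was −1.32 without control replicate 2. Mrps27, a pentatricopeptide repeat protein, had 124.0, 17.8 and 90.3 in controls and 122.4, 118.0 and 52.1 in E3–E12 diet mice (0.62, and −0.22 without that library). None of these genes separated the groups.

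The 3 paralogues of bacterial S18 occupy different places, Mrps18b and Mrps18c in the small subunit and Mrps18a, against its symbol, in the large one. Mrps18a had 98.6, 26.3 and 97.1 in controls and 69.1, 162.9 and 122.0 in E3–E12 diet mice (log2 fold change 0.80, SE 0.76). Mrps18b had 24.7, 33.0 and 56.2 in controls and 23.8, 54.6 and 27.4 in E3–E12 diet mice (−0.12, SE 0.64), with 30.2% of its 50-base windows shared with other genes. Mrps18c had 18.4, 186.1 and 23.8 in controls and 34.9, 6.15 and 6.88 in E3–E12 diet mice (−1.83, SE 1.12, and −0.79 without control replicate 2), with 22.9% of its windows shared. The 3 paralogues therefore differed in which library was highest, and control replicate 2 was the lowest for Mrps18a and the highest for Mrps18c. Mrps30, likewise a large subunit protein by structure, had 17.1, 73.1 and 48.8 in controls and 2.27, 84.3 and 18.9 in E3–E12 diet mice (−1.20, SE 1.27). Mrps36 is a part of the 2-oxoglutarate dehydrogenase complex and was not taken as a stable ribosomal protein. It was counted neither among genes with a bacterial counterpart nor among those specific to mitochondria. It had 55.6, 0 and 91.5 in controls and 57.8, 34.4 and 75.9 in E3–E12 diet mice. Mrps9 was too low to be tested, with 0, 0 and 7.02 in controls and 39.4, 0 and 0 in E3–E12 diet mice.

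Of 68 other genes in 4 lists drawn up for the mitochondrial translation machinery, 28 (41.2%) were higher in E3–E12 diet mice, against 54.4% of all genes, and the difference was not tested. Of 5 mitoribosomal proteins under other symbols 1 was higher and 4 were lower in E3–E12 diet mice (median log2 fold change −0.02), and Dap3, a GTP-binding protein of the small subunit, had 180.8, 1271 and 226.4 in controls and 196.5, 263.2 and 248.4 in E3–E12 diet mice. Of 15 translation factors 5 were higher and 10 lower (median −0.42), of 30 assembly and rRNA modification factors 14 and 16 (median −0.02), and of 18 aminoacyl-tRNA synthetases 8 and 10 (median −0.36). Without control replicate 2 the genes higher in these lists were 3 of 5, 4 of 15, 15 of 30 and 7 of 18. Of all genes tested 49.6% were then higher. The assembly list also holds Polrmt, Tfam and Tfb2m, which act in mitochondrial transcription. In each of these 4 lists 0 genes passed the adjusted threshold of limma (0.0% of all genes did), and 2 of the 68 genes had an unadjusted p under 0.05 (2.94%, against 1.82% of all genes). One was Mettl15, which methylates the 12S RNA, with 71.2, 9.32 and 25.8 in controls and 9.70, 2.18 and 3.06 in E3–E12 diet mice. The other was Lars2, the leucyl-tRNA synthetase, with 84.1, 0 and 57.9 in controls and 0 in all 3 E3–E12 diet libraries. The groups overlapped in both, through control replicate 2.

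In 5 of the 68 genes (7.35%) the groups did not overlap, where 5.90% of all genes tested did not. They were Gars, the glycyl-tRNA synthetase of cytosol and mitochondria, which was higher in E3–E12 diet mice, and 4 genes that were lower. Gars had 218.4, 101.2 and 260.1 in controls and 467.1, 261.9 and 317.1 in E3–E12 diet mice. Its highest control and lowest E3–E12 diet library lay almost at the same value. Without control replicate 2 its log2 fold change was 0.50. Guf1, a GTPase that acts on the elongating ribosome, had 488.1, 167.6 and 231.1 in controls and 150.7, 134.3 and 114.9 in E3–E12 diet mice. Hars2, the histidyl-tRNA synthetase, had 157.5, 83.5 and 175.6 in controls and 57.1, 41.5 and 61.8 in E3–E12 diet mice. The assembly factors Gtpbp10 (92.4 to 155.8 in controls, 41.8 to 78.0 in E3–E12 diet mice) and Mettl17 (202.1 to 456.4 and 79.8 to 193.5) were the others. Log2 fold changes ran from −1.31 for Hars2 to 0.91 for Gars. The ribosomal RNAs themselves overlapped fully, with log2 fold changes of −0.03 for mt-Rnr1 (SE 0.73) and 0.04 for mt-Rnr2 (SE 0.72), and the ratio of mt-Rnr2 to mt-Rnr1 lay between 1.57 and 2.08 in all 6 libraries.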

How the data were processed

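The authors deposited 1 table of normalized counts per gene (a signal with no raw counts) for 26789 genes and 6 libraries, of which 26507 identifiers were matched to symbols in the GENCODE M21 annotation of GRCm38. The submitters' processing notes name FastQC, STAR, featureCounts, DESeq2 and GRCm38, without versions. The table's name mentions sva, and how it was used is not given in the sources used here. Low values did not fall on whole multiples of 1 step (at most 43.5% within 0.02 steps), so reads were not recovered and depth is unknown. The methods describe amplified RNA and the labels TruSeq libraries. The deposited values were analysed as log2(normalized count + 1) with limma 3.58.1 (lmFit and eBayes in R 4.3.3, diet as the only term) over the 18007 genes averaging 10 or more, after a test on simulated data. Exact permutation tests over the 6 libraries were two-sided. Described by name were genes whose groups did not overlap, the 5 highest and 5 lowest fold changes, the 3 highest levels per kb in each subunit, genes not tested and 14 genes chosen by role, and Mrpl27, Mrpl2, Mrps11 and Mrpl43 after their values were seen. Members, gene lists and marker lists were chosen with earlier results of these data known. Uniqueness was measured as the share of 50-base exon windows that occur in other annotated genes. Alternatives were other pseudocounts, filters, scalings, a variance trend, the replicate number as a block and leaving out each library. Same-numbered libraries of the diets deviated together with correlations of 0.26, 0.03 and 0.14 across genes, so the numbers were not taken as pairs. Of the microglial marker list, 1 gene is not reported here.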

Additional observations from a re-analysis of the deposited data

How the results depend on the processing

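Of the 76 genes, 0 passed the adjusted threshold of limma under any of the 14 alternatives (with an unadjusted p under 0.05 in 0 to 2 genes). The number with an unadjusted p under 0.05 was 1, and 0 with a pseudocount of 0.5, after quantile normalization and with a variance trend and robust moderation. With each library left out in turn it was 0 to 2, and the number of genes whose groups did not overlap was 7 to 15 in place of 4, where 1 group then holds only 2 libraries. The median log2 fold change of the 76 genes was −0.051 after quantile normalization and −0.071 to 0.209 with a library left out, where leaving out control replicate 2 gave the lowest value and E3–E12 diet replicate 3 gave 0.032. Scaling by the library total moved the median of all genes from 0.087 to 0.198 and gave 48 genes higher in E3–E12 diet mice, and quantile normalization moved it to −0.003 and gave 36. With the replicate number as a block, limma gave 0 genes past the adjusted threshold (smallest adjusted p 0.98), 1 at an unadjusted p under 0.05 and 468 of all genes in place of 327; control replicates 1 and 3 correlated best with the E3–E12 diet library of their own number and control replicate 2 did not. Of the 30 named genes tested, 15 kept their direction throughout and 26 of 413 values were reversed. These were 0.057 for Mrpl10 and 0.083 for Mrps24 after scaling by the library total, and −0.14 with a pseudocount of 10 and −0.54 after quantile normalization for Mrpl44. The others came from leaving out 1 library, with ranges of −0.28 to 0.12 for Mrpl10, −1.50 to 0.66 for Mrpl17, −1.11 to 1.07 for Mrpl20, −0.10 to 2.24 for Mrpl23, −0.89 to 0.20 for Mrpl24, −1.66 to 0.91 for Mrpl4, −1.316 to 1.147 for Mrpl44, −0.43 to 0.52 for Mrpl45, −0.47 to 0.20 for Mrps18b, −0.054 to 3.36 for Mrps21, −0.42 to 0.40 for Mrps24, −0.05 to 3.17 for Mrps25, −0.216 to 1.151 for Mrps27, −2.33 to 0.025 for Mrps30 and −0.41 to 2.85 for Mrps36. The cause was not tested. With 3 libraries a group and unknown depth, single genes with differences near their standard error cannot be resolved.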
